A study of Mus musculus with 30 samples.

Results

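The comparison described here asked how far the bone marrow (BM) transcriptome of obese recipients treated with an antibody against interleukin-17A still differed from that of lean recipients. It set 3 BM libraries of anti-IL-17A-treated *Ob/Ob* recipients against 3 BM libraries of wild-type (WT) recipients, 6 of the 30 samples of the series, over all 13353 genes of the BM count table. *Ob/Ob* mice lack functional leptin and become obese. All recipients, lean and obese alike, were lethally irradiated (700 cGy, then 400 cGy) and received a 1:1 mixture of CD45.2+ BM from Shp2E76K/+;LysM-Cre+ donors and CD45.1+ BM from Boy/J competitors. Shp2E76K is an activating allele of the phosphatase encoded by *Ptpn11*, and LysM-Cre acts in myeloid cells, so the marrow of every group, WT recipients included, held mutant and normal hematopoietic cells together. At 8 weeks after transplantation the obese recipients were given vehicle, or the antibody at 200 μg per mouse by intraperitoneal injection 3 times per week, for 30 days. The WT recipients are labelled with no treatment. Recipient genotype and antibody therefore changed together between the groups, and their parts in any difference cannot be told apart from these 6 libraries alone. Mice were 12 to 14 weeks old by the labels, of both sexes, on a C57BL/6J background, and n is given there as 3 mice per group. Libraries of vehicle-treated *Ob/Ob* recipients (Vehicle, n = 3) are given beside the members where they show what the marrow looked like without the antibody. The contrasts of anti-IL-17A and of Vehicle with WT share the WT libraries, so their values are placed side by side and the difference between them was tested as anti-IL-17A against Vehicle.

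IL-17A is made by T helper 17 cells and other lymphocytes and acts, with IL-17F, through the receptor chains IL-17RA and IL-17RC and the adaptor Act1, raising neutrophil chemokines, colony-stimulating factors and antimicrobial proteins. Marrow is the site of granulocyte and B lymphocyte production, and inflammatory cytokines and interferons are known to favour the first over the second. Interferons act on a shared set of target genes, many with an interferon-stimulated response element in the promoter, while MHC class II genes depend on the coactivator CIITA and are expressed by B cells, dendritic cells and macrophages.

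Promoters of some genes named in the results below are shown first. These genes were picked from their lists, and for each the first window that held a match to the sequence named below is given. The promoters are RefSeq windows of 300 bases on build GRCm38.p6, from 250 bases before to 50 bases after an annotated start, written 5′ to 3′ on the gene's strand. Capitals mark matches, on either strand, to the core of the interferon-stimulated response element (GAAA, any 2 bases, GAAA, or on the other strand TTTC, any 2 bases, TTTC) in *Isg15*, *Ifit3* and *Oas1a*, and to CTGATTGG, the CCAAT core of the class II Y box (reverse complement CCAATCAG), in *H2-Aa* and *H2-Eb1*.
Isg15, chr4:156200769-156201068, minus strand: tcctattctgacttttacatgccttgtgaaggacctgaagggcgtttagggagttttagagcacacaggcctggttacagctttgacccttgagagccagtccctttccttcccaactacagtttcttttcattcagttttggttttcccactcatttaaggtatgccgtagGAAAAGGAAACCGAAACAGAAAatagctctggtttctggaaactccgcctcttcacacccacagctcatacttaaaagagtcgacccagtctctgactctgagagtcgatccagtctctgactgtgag
Ifit3, chr19:34583279-34583578, plus strand: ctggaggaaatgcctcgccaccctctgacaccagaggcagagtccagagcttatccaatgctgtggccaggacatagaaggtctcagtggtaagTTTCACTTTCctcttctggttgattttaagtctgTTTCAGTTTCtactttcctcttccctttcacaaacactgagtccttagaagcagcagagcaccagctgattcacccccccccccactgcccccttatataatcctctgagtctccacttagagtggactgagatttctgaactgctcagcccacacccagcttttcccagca
Oas1a, chr5:120907476-120907775, minus strand: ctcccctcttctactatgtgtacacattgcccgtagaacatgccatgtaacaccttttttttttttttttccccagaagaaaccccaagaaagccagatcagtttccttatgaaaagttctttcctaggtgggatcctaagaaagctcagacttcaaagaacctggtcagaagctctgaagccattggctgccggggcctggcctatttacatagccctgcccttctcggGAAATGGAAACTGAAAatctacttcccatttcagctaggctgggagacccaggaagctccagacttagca
H2-Aa, chr17:34287774-34288073, minus strand: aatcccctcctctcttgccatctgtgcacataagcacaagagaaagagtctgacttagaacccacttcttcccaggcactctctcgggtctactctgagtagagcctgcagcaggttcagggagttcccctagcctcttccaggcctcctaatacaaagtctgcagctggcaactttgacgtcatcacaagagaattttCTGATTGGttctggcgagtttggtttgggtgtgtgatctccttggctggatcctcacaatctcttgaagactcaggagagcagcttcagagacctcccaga
H2-Eb1, chr17:34305617-34305916, plus strand: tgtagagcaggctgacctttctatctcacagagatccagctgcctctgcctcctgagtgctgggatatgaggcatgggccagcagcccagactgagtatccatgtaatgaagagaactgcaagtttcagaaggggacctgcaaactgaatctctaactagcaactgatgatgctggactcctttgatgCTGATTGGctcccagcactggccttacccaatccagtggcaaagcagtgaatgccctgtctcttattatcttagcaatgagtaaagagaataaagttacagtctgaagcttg

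On either strand, the response element core was found in the window of 13 of the 21 type I interferon-stimulated genes that had one (61.9%), against 3.94% of the 10113 tested genes with a window and 3.44% of all 32851 windows. In *Isg15* 3 overlapping matches ran together into 1 tract. CTGATTGG was found in 3 of 10 MHC class II genes with a window (30%), against 6.43% of tested genes and 4.1% of all windows. The EBF1 core CCCNNGGG, which is its own reverse complement, was found in 2 of 15 early B lymphopoiesis genes and 2 of 13 mature B cell genes, against 20.8% of tested genes and 13.7% of all windows. The sterol response element core TCACNCCAC (reverse complement GTGGNGTGA) was found in 1 of 13 cholesterol genes, against 1.4% of tested genes and 1.24% of all windows. These matches are descriptions of the letters in the windows only.

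The WT libraries held 31777997 to 39925495 counts, the anti-IL-17A libraries 32662280 to 36968230 and the Vehicle libraries 31281097 to 34797411. The common biological coefficient of variation was 3.51%, small for separate animals. Whether the 3 libraries of a group share material was not tested, and every SE and p-value here measures only the spread between libraries, which may be technical. WT replicate 1 stood apart from WT replicates 2 and 3: the chi-square statistic per degree of freedom over genes was 34.2 and 26.2 against them, 2.92 between replicates 2 and 3. Most of that distance came from *Rn45s*, the 45S ribosomal RNA precursor, at 669464, 218220 and 250446 normalized counts in the 3 WT libraries and 244080, 174388 and 220812 in the anti-IL-17A libraries. Results that rest on WT replicate 1 are therefore also given without it. The abundant transcripts were those of whole marrow, such as the granule genes *Ngp* (mean 674329 normalized counts after the antibody) and *Ltf* (mean 359848). The labels describe the groups as matched for sex, and sex-linked transcripts were read in each library. *Xist*, expressed from the inactive X chromosome of female cells, had 2.6, 0 and 2.15 normalized counts in WT, 88.3, 93.5 and 113 after the antibody and 6582, 6712 and 6339 in Vehicle. The Y-linked *Ddx3y* had 1681, 1489 and 1547 in WT, 1472, 1460.0 and 1488 after the antibody and 743, 698 and 695 in Vehicle. *Xist* was called higher after the antibody than in WT (adjusted p = 5.6e-17), with no overlap and at 3 counts or fewer in each WT library, and was the second of the 15 largest increases, while *Ddx3y* was not called (-0.10 ± 0.052). The Vehicle libraries stood far above the other 6 for *Xist* and below them for *Ddx3y*. The part of these sex-linked differences in the other values, between the antibody and WT groups as in Vehicle, was not tested.

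Among the gene lists examined, B-lineage, MHC class II and interferon-stimulated genes held most of the genes called lower after the antibody than in lean BM, and matrix genes of the stromal list and a few cholesterol genes were called higher. Several genes of the stefin cluster were also higher. Of these *Stfa2* and *BC100530* were found among the largest changes and *Stfa3* through a list, and *Stfa1* was looked up afterwards. A gene was called at an adjusted p (edgeR quasi-likelihood test, Benjamini-Hochberg over 13353 genes) below 0.05 with a log2 fold change beyond 1 in either direction. By this rule 844 genes were called (6.32%), 307 higher after the antibody (2.3%) and 537 lower (4.02%). Beyond a log2 fold change of 2 there were 94 called genes, 53 higher and 41 lower, and beyond 3 there were 16 higher and 3 lower. Without a limit on the fold change 8849 genes (66.3%) passed, but 5651 of these (63.9%) had a log2 fold change smaller than 0.5 in size. The median log2 fold change over all genes was -0.0092. Against WT, the Vehicle libraries had 2598 called genes (19.5%), 1260 higher (9.44%) and 1338 lower (10%). Against Vehicle, the anti-IL-17A libraries had 2151 called genes (16.1%), 1022 higher (7.65%) and 1129 lower (8.46%).

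**Figure D1:**
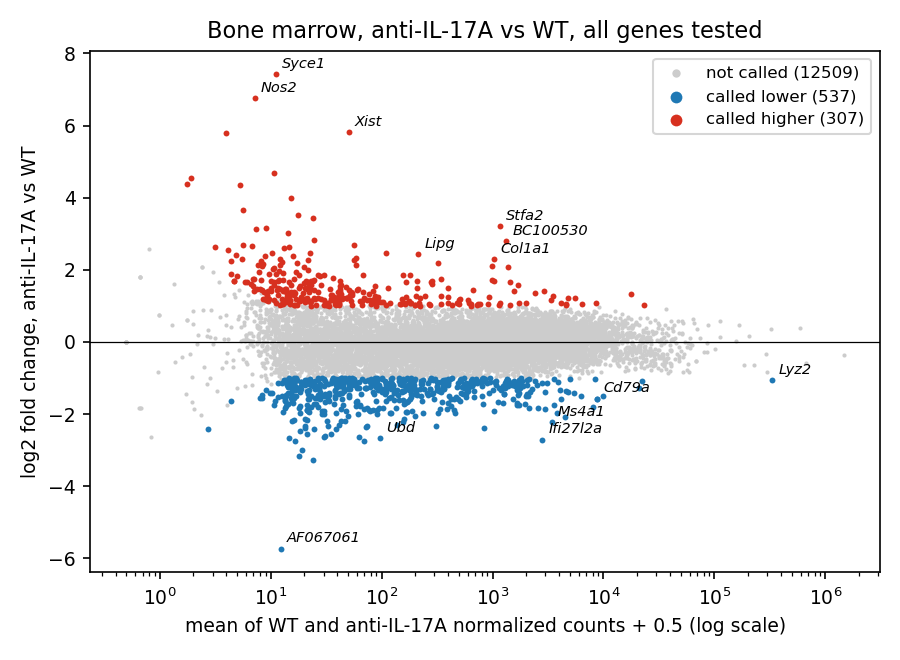
Log2 fold change of anti-IL-17A against WT BM (y axis) by the mean normalized counts of both groups plus 0.5 (x axis, log scale) for all 13353 genes, with 537 genes called lower in blue and 307 called higher in red. The 16 genes called higher beyond a log2 fold change of 3 sit at low counts apart from *Stfa2*, where fitted values of genes at 0 in WT (*Syce1*, *Nos2*) depend on the prior count, and the abundant genes called lower include *Lyz2*, *Cd79a* and *Ms4a1*.

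**Figure D2:**
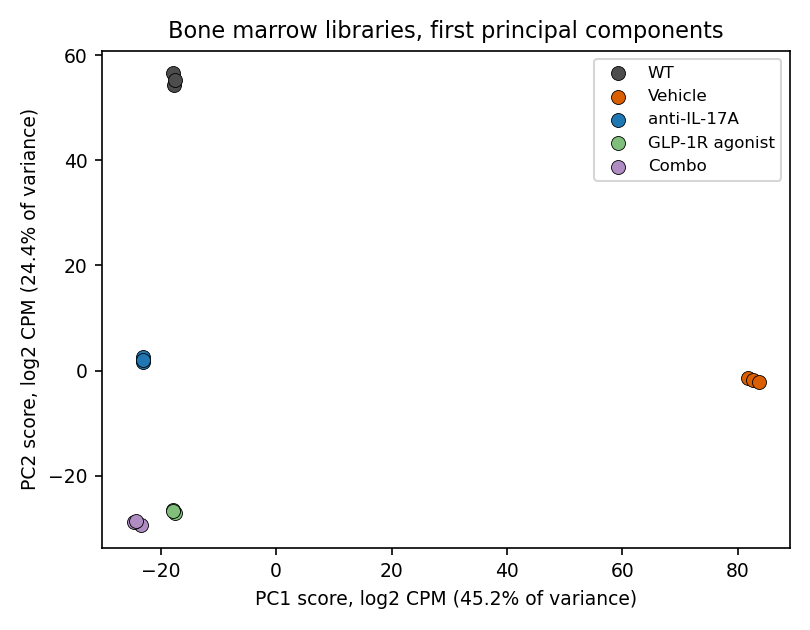
Scores of the 15 BM libraries on the first (x axis, 45.2% of the variance) and second (y axis, 24.4%) principal components of log2 CPM. The anti-IL-17A libraries lie close to WT on the first axis, on which Vehicle stands apart. On the second axis they lie next to Vehicle and far from WT. Both these groups lie there between WT and the GLP-1R agonist and Combo libraries (obese recipients given beinaglutide, alone or with the antibody).

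The targeted cytokine was first read in every library. *Il17a* had 0 counts in the 3 WT libraries, 20.4, 22.6 and 33.6 normalized counts in Vehicle and 1.02, 0 and 0 after the antibody. *Il17f*, its closest relative, had 1.73, 0 and 1.08 in WT, 30.6, 33.3 and 32.4 in Vehicle and 6.09, 0.899 and 5.44 after the antibody, and was not called against WT except with anti-IL-17A replicate 2 left out or with the offset for gene length and GC content. *Il22*, a cytokine of the same lymphocytes, was at 0 in all WT and anti-IL-17A libraries and at 215, 289 and 286 in Vehicle. For *Il17a* and *Il22* both groups compared were thus at or under 3 counts per library, and a difference was not detectable at this depth. The receptor gene *Il17ra* had 10896, 11389.8 and 11350.2 in WT and 13022, 13432 and 13185 after the antibody, above WT in all 3 libraries but by a log2 fold change of only 0.24 ± 0.025, which was not called and turned to -0.0136 with the offset for gene length and GC content described below. Of the 16 genes listed for the IL-17 axis, 10 were in the table, 1 of them called higher and 2 lower. *Traf3ip2*, which encodes Act1, fell from 341, 355 and 399 to 153, 179.8 and 191 (log2 fold change -1.06 ± 0.11), with no overlap between the groups, and its call was lost without WT replicate 3 or anti-IL-17A replicate 1. *Ccr6*, the receptor for CCL20 on T helper 17 and B cells, fell by 1.33 on the log2 scale.

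Genes that IL-17A is known to induce did not lie below WT as a list. Of 25 listed, 18 were tested, 2 were called higher and 1 lower (16.7% called, against 6.32% of all genes). The median log2 fold change was 0.43. *Cxcl2*, a neutrophil chemokine, had 494, 490.0 and 476 normalized counts in WT, 3308, 3269.9 and 3305 in Vehicle and 1625, 1529 and 1562 after the antibody (log2 fold change 1.69 ± 0.053 (SE, n = 3 per group), adjusted p = 4.7e-27). The collagenase gene *Mmp13* had 128, 100.2 and 115 in WT, 979.8, 935 and 879 in Vehicle and 497, 547 and 534 after the antibody (log2 fold change 2.19 ± 0.092 (SE, n = 3 per group), adjusted p = 6.5e-23). For both, every anti-IL-17A library lay above every WT library and below every Vehicle library; against Vehicle the antibody group was called lower for *Cxcl2* (log2 fold change -1.07) and not for *Mmp13* (-0.82). *Ccl7*, a monocyte chemokine, was called lower at 10.4 normalized counts or fewer in each of the 6 libraries, with overlapping groups. The lipocalin gene *Lcn2* (log2 fold change 0.47 ± 0.029), *Nfkbiz* (0.41 ± 0.048) and the alarmin genes *S100a8* (-0.59 ± 0.12) and *S100a9* (-0.36 ± 0.019) were not called, nor was *Cxcl1* at 3.46, 3.97 and 0 in WT and 0, 1.8 and 0 after the antibody.

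Type I interferon-stimulated genes were lower than in lean marrow. Of 32 listed genes 31 were tested, 14 were called lower, none was called higher, and 1 had a positive log2 fold change, with a median of -0.98. In 28 of the 31 the libraries of the groups did not overlap, against 67.9% of all genes. *Isg15*, a ubiquitin-like modifier, had 958, 1040.5 and 1014 normalized counts in WT and 323, 352 and 365 after the antibody (log2 fold change -1.53 ± 0.051 (SE, n = 3 per group), adjusted p = 6.8e-25). In Vehicle it had 33006, 31934 and 33374, so that the obese group without the antibody lay far above both. *Ifit3*, a cytoplasmic antiviral protein gene, had 512, 497 and 568 in WT, 16891, 17247 and 17103 in Vehicle and 149, 145 and 137 after the antibody (log2 fold change -1.87 ± 0.084 (SE, n = 3 per group), adjusted p = 7.3e-18). All 3 antibody libraries of both genes lay below all WT libraries. *Oas1a*, an activator of RNase L, fell from 1164, 1223 and 1186 to 405, 416 and 431, and *Ifit1* from 403, 292 and 357 to 134, 101 and 106. The promoter windows of *Isg15*, *Ifit3* and *Oas1a* are those shown above with the response element in capitals.

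*Ifi27l2a* (chr12:103442167-103443680, minus strand, GRCm38), whose product is a small interferon-induced membrane protein, had the largest decrease in the list. It had 4663, 4895 and 5096 normalized counts in WT, 10553, 10812 and 10774 in Vehicle and 758, 721 and 764 after the antibody (log2 fold change -2.71 ± 0.044 (SE, n = 3 per group), adjusted p = 1.1e-35). Others called lower were *Ifi44*, *Mx2*, *Ifit3b*, *Xaf1*, *Ifi204*, *Usp18*, *Mx1*, *Rtp4* and *Oasl1*, with log2 fold changes from -2.18 to -1.03. The transcription factor genes moved less: *Irf7* had a log2 fold change of -0.91 ± 0.045 and *Stat2* of -0.28 ± 0.038, neither of them called. *Cmpk2* (-0.01 ± 0.034) and *Ifit2* (0.01 ± 0.046) had the values nearest to 0. Vehicle against WT had 30 of the 31 called higher (median 3.32), and anti-IL-17A against Vehicle all 31 lower (median -4.30). In these bulk libraries a lower count may reflect fewer cells of a type or less RNA per cell, which cannot be told apart.

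The interferon-γ response list also lay below lean marrow. Of 30 listed genes 29 were tested, 10 were called lower and 1 higher, with a median of -0.65 (Vehicle against WT, 25 higher, median 3.05). *Gbp2*, a guanylate-binding GTPase of cell-autonomous immunity, had 893, 933 and 819 normalized counts in WT, 21012, 20741 and 20654 in Vehicle and 451, 419.8 and 415 after the antibody (log2 fold change -1.05 ± 0.05 (SE, n = 3 per group), adjusted p = 3.6e-21). *Gbp9* fell from 858, 754 and 842 to 347, 368 and 357. *Cxcl9*, the CXCR3 ligand, had 126, 95.2 and 84.0 in WT, 9317, 9769 and 9575 in Vehicle and 51.8, 44.1 and 33.6 after the antibody. In each of these genes the antibody group lay below WT without overlap. *Gbp4*, *Gbp8*, *Gbp10*, *Iigp1*, *Tgtp1*, *Tgtp2* and the Fc receptor gene *Fcgr1* were also called lower, *Tgtp1* only just. The guanylate-binding and Tgtp genes, like *Ifit3* and *Ifit3b*, are close copies. Only uniquely mapped reads were counted, so reads that fit several copies are missing from their counts. The gene called higher was *Nos2*, encoding inducible nitric oxide synthase. It had 0 counts in all 3 WT libraries, 1813, 1831 and 1712 normalized counts in Vehicle and 12.2, 11.7 and 16.3 after the antibody, at least 4.57-fold above WT against a floor of 3 counts per library. The interferon-γ receptor genes *Ifngr1* (0.13 ± 0.025) and *Ifngr2* (0.05 ± 0.034), the ligand *Ifng* (-0.35 ± 0.32) and *Irf1* (-0.49 ± 0.035) were not called. *Ubd*, which encodes the ubiquitin-like FAT10 and was among the 15 largest decreases of the table, had 154, 148 and 199 in WT, 1290.5, 1340.2 and 1299 in Vehicle and 21.3, 28.8 and 28.1 after the antibody (log2 fold change -2.66 ± 0.16 (SE, n = 3 per group), adjusted p = 6.3e-18).

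**Figure D3:**
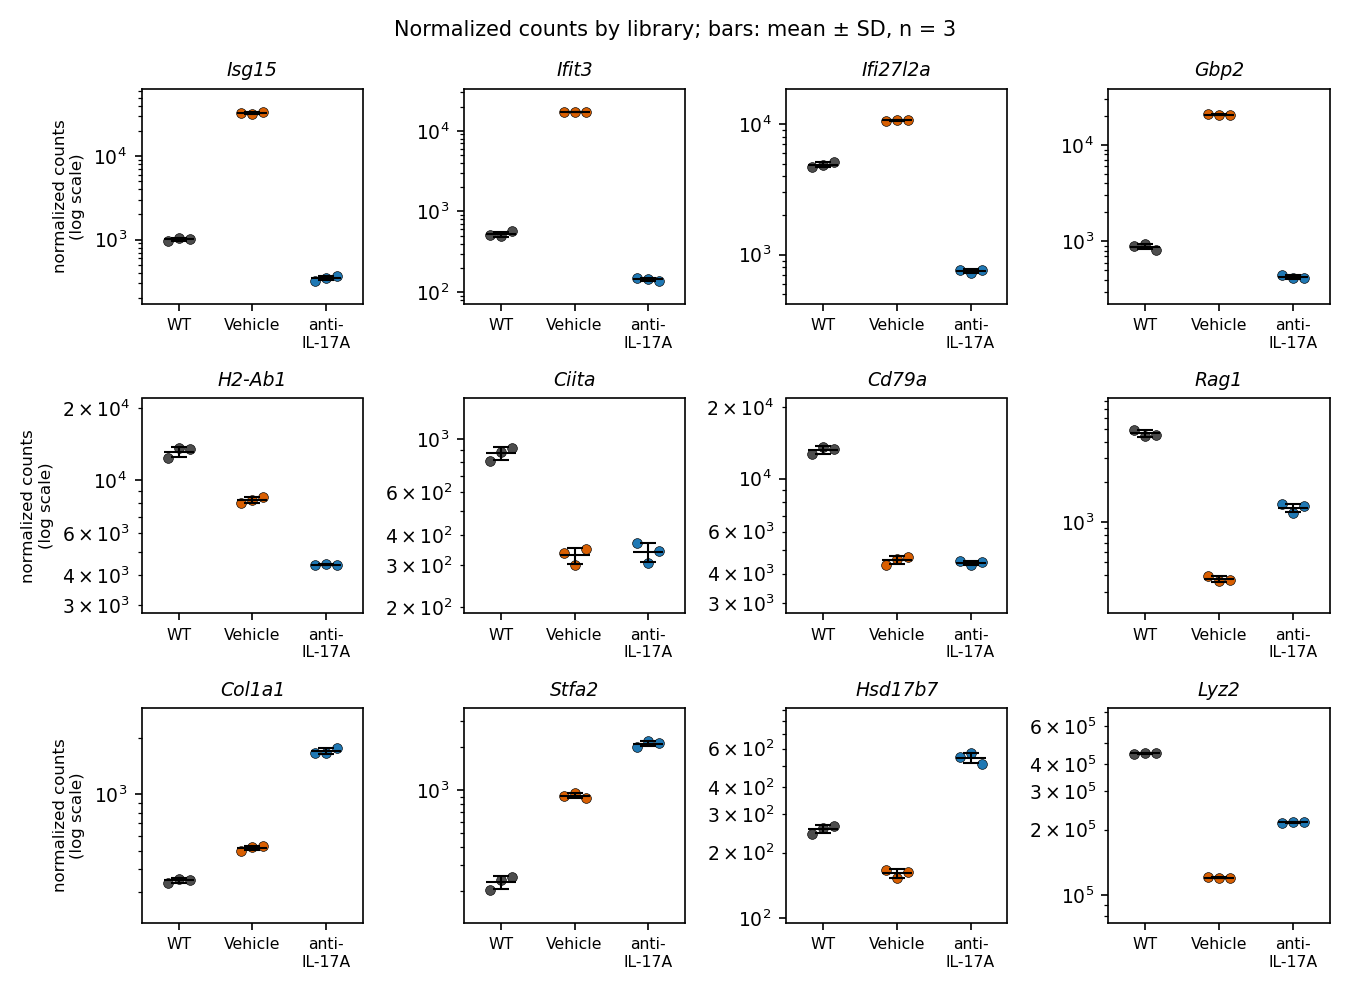
Normalized counts (y axis, log scale, one range per panel) of 12 genes in each WT, Vehicle and anti-IL-17A BM library (x axis), with bars for the mean ± SD of 3 libraries. *Isg15*, *Ifit3*, *Ifi27l2a* and *Gbp2* are highest in Vehicle and lowest after the antibody, *H2-Ab1* falls from WT through Vehicle to the antibody, and *Col1a1*, *Stfa2* and *Hsd17b7* are highest after the antibody.

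All 13 MHC class II genes tested had a negative log2 fold change against WT, and 8 were called lower (median -1.26). *H2-Ab1*, a class II β chain, had 12395, 13595 and 13444 normalized counts in WT, 8009, 8268 and 8453 in Vehicle and 4397, 4433 and 4419.9 after the antibody (log2 fold change -1.57 ± 0.038 (SE, n = 3 per group), adjusted p = 1.1e-22). *H2-Aa*, the α chain whose promoter is shown above, had 14117, 14838 and 15062 in WT, 9193, 9244 and 9494 in Vehicle and 5164, 5189.9 and 5343 after the antibody (log2 fold change -1.49 ± 0.029 (SE, n = 3 per group), adjusted p = 3.5e-34). The invariant chain gene *Cd74* had 27220.1, 30329.9 and 30304 in WT, 21979, 22205 and 22869 in Vehicle and 12163, 12317 and 12077 after the antibody (log2 fold change -1.26 ± 0.031). In these 3 genes the antibody group was lowest and none of the groups overlapped. Against Vehicle, *H2-Eb1* was called lower (log2 fold change -1.07 ± 0.031), whereas *H2-Ab1* (-0.90 ± 0.038), *H2-Aa* (-0.83 ± 0.029) and *Cd74* (-0.88 ± 0.031) did not reach the limit of 1. *Ciita*, the class II coactivator, had 809, 883 and 922 in WT, 336, 299.6 and 349 in Vehicle and 368, 307 and 343 after the antibody (log2 fold change -1.36 ± 0.091 against WT), so that the obese groups overlapped each other below WT. *H2-DMb2* (-1.69 ± 0.061), a chain of the peptide exchange factor H2-DM, and *H2-Ob* (-1.70 ± 0.064), a chain of its modulator H2-O, had the lowest values of the list, and the lysosomal protease gene *Ctss* (-0.50 ± 0.024), *Ifi30* (-0.07 ± 0.043) and *Rfx5* (-0.21 ± 0.065) were not called.

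MHC class I genes differed less. None of the 18 tested was called against WT, while 16 had a negative log2 fold change, with a median of -0.46; 15 were called higher in Vehicle. *B2m*, the shared light chain, had 40688, 41800.1 and 41369 normalized counts in WT, 133800, 128812 and 130561 in Vehicle and 29807, 29498 and 29796 after the antibody (log2 fold change -0.48 ± 0.024 (SE, n = 3 per group), adjusted p = 1.4e-20). *H2-K1*, a classical heavy chain, had a log2 fold change of -0.54 ± 0.024 and *Nlrc5*, the class I coactivator, of -0.47 ± 0.056.

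B-lineage genes stood well below lean marrow. Of 18 early B lymphopoiesis genes 11 were called lower and none higher (median -1.23), and of 16 tested genes of mature B and plasma cells 13 were called lower and none higher (median -1.39). *Cd79a*, the signalling chain of the B cell receptor, had 12657, 13561 and 13291 normalized counts in WT, 4345, 4625 and 4685 in Vehicle and 4509.9, 4331 and 4472 after the antibody (log2 fold change -1.57 ± 0.03 (SE, n = 3 per group), adjusted p = 3.8e-34). *Cd79b*, its partner chain, had 12082, 13014 and 12686 in WT, 3420.1, 3738 and 3784 in Vehicle and 3602, 3758 and 3561 after the antibody (log2 fold change -1.79 ± 0.034 (SE, n = 3 per group), adjusted p = 3.8e-34). For both genes the obese groups overlapped each other well below WT, and neither gene was called between anti-IL-17A and Vehicle (log2 fold change -0.04 ± 0.031 for *Cd79a*). Within both lists the log2 fold changes farthest below 0 were those of mature B cell genes, *Fcer2a* (-2.40 ± 0.089), *Cr2* (-2.34 ± 0.12) and *Ms4a1* (-2.23 ± 0.09), whose products are B cell surface proteins. *Cd72* (-1.83 ± 0.051) and *Mzb1* (-1.74 ± 0.059) were also called lower, with 41.6% and 57.2% of their exon sequence shared with another annotated gene.

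Genes of antigen receptor recombination occupied a middle position. *Rag1*, which encodes the recombinase, had 4924, 4419 and 4503 normalized counts in WT, 398, 362 and 367 in Vehicle and 1357, 1179 and 1312 after the antibody (log2 fold change -1.85 ± 0.052 (SE, n = 3 per group), adjusted p = 1.1e-27). *Dntt*, encoding terminal transferase, had 2462, 2491 and 2549.5 in WT, 219, 231 and 239 in Vehicle and 952, 951 and 918 after the antibody (log2 fold change -1.41 ± 0.054 (SE, n = 3 per group), adjusted p = 3.5e-24). In both the 3 groups were separate, with the antibody between Vehicle and WT, and both were called higher than in Vehicle (log2 fold change 1.77 ± 0.067 and 2.03 ± 0.072). *Rag2*, *Vpreb3* and, among the later genes, *Fcer2a* and *Jchain* were likewise called lower than WT and higher than Vehicle. The transcription factor genes *Ebf1* (-1.26 ± 0.057) and *Pax5* (-1.20 ± 0.084) were called lower than WT, while the surrogate light chain genes *Vpreb1* (-0.92 ± 0.074) and *Igll1* (-0.81 ± 0.065) and the receptor gene *Il7r* (-0.83 ± 0.071) were lower without reaching the limit. *Cd24a* (0.08 ± 0.026) and *Erg* (0.66 ± 0.045), which other marrow cells also express, were not lower. Summed over the list, early B genes gave 97350 to 99530 normalized counts in WT and 65100 to 66140 after the antibody, and the mature B and plasma genes 67280 to 70370 and 29560 to 30220. Against WT these B-lineage transcripts moved with the class II genes, and their part in that result was not tested. Against Vehicle the lists had medians of opposite sign, 0.55 for early B and 0.49 for mature B and plasma genes, and -0.57 for class II genes.

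Other lymphoid and antigen-presenting lists moved less. None of 19 tested T cell genes was called (median -0.13). Of 15 genes of NK and cytotoxic lymphocytes 2 were called (13.3%, against 6.32% of all genes), with a median of -0.61. Both were lower, the receptor gene *Klre1* (-1.61 ± 0.18) and the granzyme gene *Gzma* (-1.03 ± 0.075). Of 14 dendritic cell genes 3 were called lower, *Cd209a* (-1.93 ± 0.17), *Ccr7* (-1.65 ± 0.082) and *Clec10a* (-1.07 ± 0.079), while the summed level of the list was 6324 to 6549 in WT and 4717 to 4839 after the antibody. Monocyte and macrophage genes had nearly equal sums, 99700 to 100600 and 99250 to 99720, with 1 of 25 called (4%, against 6.32% of all genes). This was *Nr4a1*, higher (1.58 ± 0.049), an orphan nuclear receptor of nonclassical monocytes that also responds rapidly to stimulation.

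**Figure D4:**
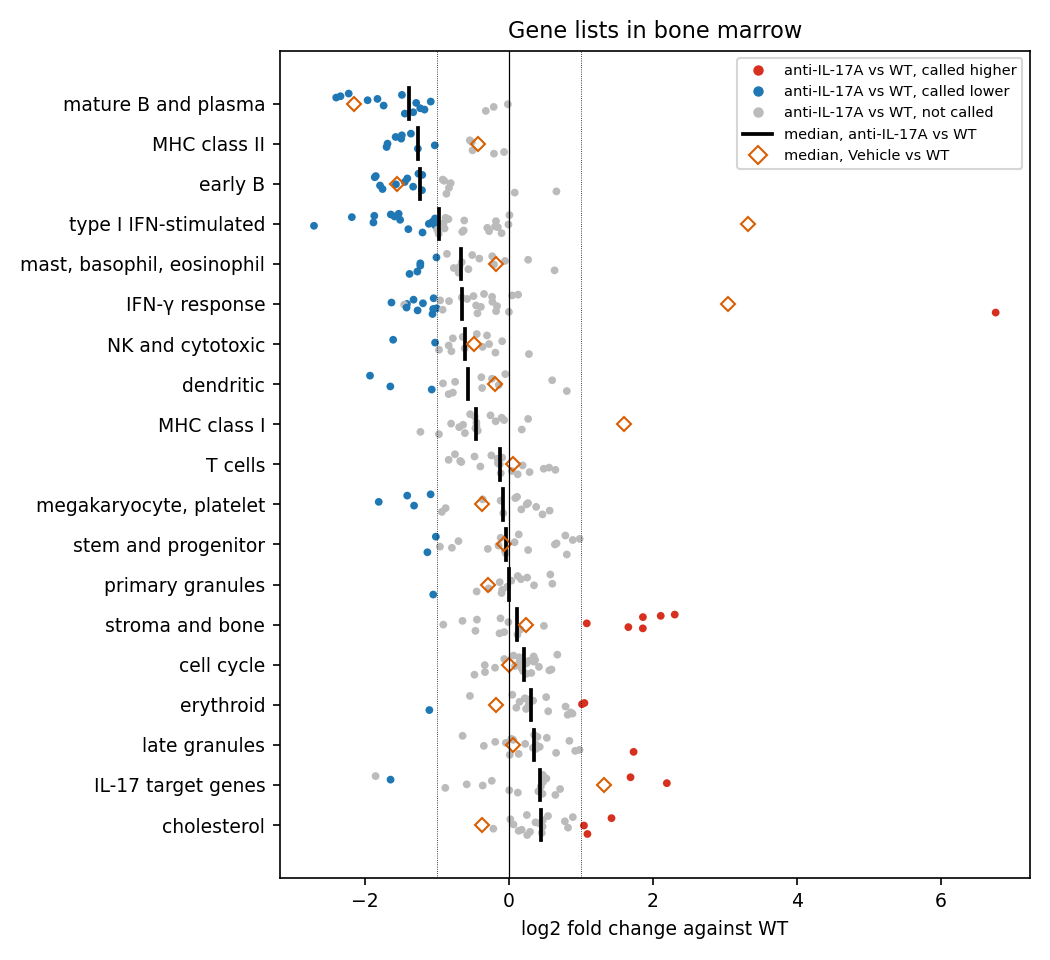
Log2 fold change of anti-IL-17A against WT (x axis) for the members of 19 gene lists (y axis), called genes in red or blue, with the list median as a black bar and the median of Vehicle against WT as an open diamond. The B cell, MHC class II and interferon lists lie to the left, and for the interferon and class I lists the Vehicle median lies on the opposite side of 0 from the antibody median. The same holds for the T cell, primary granule, erythroid and cholesterol lists.

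Matrix genes of bone and stroma were higher than in lean marrow. Of 17 tested stromal, bone and endothelial genes 6 were called higher and none lower, although the median was only 0.12. *Col1a1*, a chain of type I collagen, had 335, 354 and 349.9 normalized counts in WT, 499, 522 and 528 in Vehicle and 1677, 1668 and 1780.1 after the antibody (log2 fold change 2.30 ± 0.058 (SE, n = 3 per group), adjusted p = 3.4e-30). *Col1a2*, its partner chain, had 319, 419 and 391 in WT, 422, 463 and 439 in Vehicle and 1603, 1586 and 1659 after the antibody (log2 fold change 2.11 ± 0.067 (SE, n = 3 per group), adjusted p = 8.5e-27). In both the antibody group stood above WT and Vehicle without overlap, and both were called against Vehicle as well (1.73 and 1.87). *Ibsp*, the bone sialoprotein gene, had 86.6, 71.4 and 71.1 in WT and 321, 263 and 257 after the antibody, while in Vehicle it had 128, 98.8 and 128. *Spp1*, encoding osteopontin, had 719, 651 and 702 in WT, 3955, 4001 and 3856 in Vehicle and 2206, 2189.9 and 2156 after the antibody, so that for this gene Vehicle was highest. *Col3a1* (1.86 ± 0.32) and the pericyte receptor gene *Pdgfrb* (1.08 ± 0.12) were the others called. The matricellular gene *Postn* (13.9, 9.92 and 21.5 in WT, 86.3, 111 and 90.7 after the antibody) and the cartilage collagen gene *Col2a1* (3.46, 3.97 and 4.31 and 49.7, 36.9 and 42.6) were among the 15 largest increases. The niche genes *Cxcl12* (-0.12 ± 0.04) and *Lepr* (-0.44 ± 0.17), the endothelial genes *Cdh5* (0.16 ± 0.19) and *Emcn* (-0.13 ± 0.43), and the osteoblast gene *Bglap* (-0.91 ± 0.38) were not called. Summed over the list, the level was 7643 to 7883 normalized counts in WT, 8913 to 9063 in Vehicle and 11570 to 11930 after the antibody.

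Some sterol-related genes were also higher. Of 20 genes of cholesterol synthesis and uptake 3 were called higher (15%, against 6.32% of all genes) and none lower. In 19 the log2 fold change was positive, and the median was 0.44. *Hsd17b7*, an enzyme of the late pathway, had 243, 259.9 and 265 normalized counts in WT, 167, 152 and 162 in Vehicle and 551, 572 and 511 after the antibody (log2 fold change 1.09 ± 0.085 (SE, n = 3 per group), adjusted p = 1.4e-14). Its antibody libraries lay above all WT and Vehicle libraries without overlap. *Sqle*, encoding squalene epoxidase, had a log2 fold change of 0.89 ± 0.07 and was not called. Against Vehicle 9 of the 20 were called higher. Among 26 lipid handling genes 2 were called (7.69%, against 6.32% of all genes). The endothelial lipase gene *Lipg* was higher, at 69.3, 49.6 and 80.7 in WT, 11165, 11198 and 10992 in Vehicle and 332, 378 and 367 after the antibody. *Nr1h3*, which encodes the oxysterol receptor LXRα, was lower, at 272, 240.0 and 259 in WT, 263, 309 and 214 in Vehicle and 90.3, 80.0 and 71.6 after the antibody. Of 9 adipocyte genes tested, *Cidec* and *Plin4* were called higher and *Fabp4* and *Retn* lower, at log2 fold changes between -1.18 and 1.41, *Retn* with overlapping groups.

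Genes of the granulocyte lists were called against lean marrow at shares near that of all genes (6.32%). Of 14 primary granule genes 1 was called (7.14%), *Lyz2*. Of 21 genes of late granules and maturing neutrophils 1 was called (4.76%), *Stfa3*. The medians were 0.0048 and 0.35. Summed, the primary granule list, which includes *Lyz2*, gave 700900 to 726200 normalized counts in WT and 525700 to 532500 after the antibody. The late list gave 1665000 to 1758000 in WT and 1920000 to 1936000 after the antibody. *Lyz2*, encoding lysozyme and the gene whose locus drives LysM-Cre, had 444237, 448843 and 453100 normalized counts in WT, 121594, 119911 and 120189 in Vehicle and 215711, 217618 and 216374 after the antibody (log2 fold change -1.05 ± 0.019 (SE, n = 3 per group), adjusted p = 1.1e-34). Its level after the antibody was about midway between the other groups on the log scale, with no overlap. *Mpo* (0.58 ± 0.028), *Elane* (0.12 ± 0.028), *Ltf* (0.35 ± 0.022) and *Camp* (-0.64 ± 0.022) were not called. *Stfa2*, a cysteine protease inhibitor of neutrophils, was among the 15 largest increases, with 202, 237 and 247 in WT, 914, 946 and 876 in Vehicle and 1998, 2181 and 2131 after the antibody (log2 fold change 3.21 ± 0.057 (SE, n = 3 per group), adjusted p = 3e-35). Its neighbour *BC100530* had 368, 310.5 and 319.8 in WT, 2117, 2124 and 2137 in Vehicle and 2221, 2358 and 2339 after the antibody (log2 fold change 2.79 ± 0.048 (SE, n = 3 per group), adjusted p = 1.7e-35). *Stfa2* was called higher against Vehicle as well (log2 fold change 1.21), *BC100530* was not (0.12). These genes lie together on chromosome 16 (*BC100530* at chr16:36359382-36367748, *Stfa2* at chr16:36403992-36408457 and *Stfa3* at chr16:36450537-36455392, all on the minus strand of GRCm38). They are close copies, so reads that fit several of them were not counted and their counts may be incomplete. *Stfa1* in the same cluster (2.07 ± 0.042), looked up after these values were seen, was called higher too, and *Stfa2l1* (0.92 ± 0.034) lay just under the limit.

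Lists of rarer marrow cells showed partial changes. Of 18 genes of mast cells, basophils and eosinophils 5 were called lower, the eosinophil granule genes *Ear6* (-1.38 ± 0.18), *Ear1* (-1.27 ± 0.055) and *Prg3* (-1.23 ± 0.072), the interleukin-5 receptor gene *Il5ra* (-1.23 ± 0.16) and the IgE receptor gene *Fcer1a* (-1.01 ± 0.057), with a median of -0.67; *Epx* (-0.05 ± 0.037), a defining eosinophil gene, was not. Of 17 megakaryocyte and platelet genes 4 were called lower, *Gp6*, *Ppbp*, *Treml1* and *Pf4* (log2 fold changes -1.81 to -1.09), and the median was -0.08. Of 18 erythroid genes the membrane genes *Ank1* (1.05 ± 0.033) and *Slc4a1* (1.02 ± 0.023) were called higher and *Bpgm* (-1.10 ± 0.033) lower. In the stem and progenitor list 2 of 19 were called (10.5%, against 6.32% of all genes). Both were lower, *Sox4* (-1.13 ± 0.067, with 54.6% of its exon sequence shared with another annotated gene) and *Ly6a*. *Ly6a*, which encodes Sca-1 and is itself induced by interferons, had 1035, 1058 and 1132 normalized counts in WT, 14803, 14885 and 14959.5 in Vehicle and 537, 560.1 and 497 after the antibody (log2 fold change -1.01 ± 0.05 (SE, n = 3 per group), adjusted p = 1.3e-20). The growth factor receptor genes *Kit* (0.78 ± 0.034) and *Flt3* (0.80 ± 0.071) were higher without reaching the limit, and none of 24 cell cycle genes was called (median 0.20).

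Cytokine genes outside the IL-17 list went both ways. Of 25 tested, 4 were called higher and 3 lower (median -0.41, and -0.65 without anti-IL-17A replicate 2). With the offset for gene length and GC content described below, 6 were called higher and 1 lower (median -0.20). *Osm*, encoding oncostatin M, had 2849, 3002 and 2840.2 normalized counts in WT, 4150.4, 4431 and 4224 in Vehicle and 6761, 6959 and 6603 after the antibody (log2 fold change 1.23 ± 0.032 (SE, n = 3 per group), adjusted p = 5.6e-30). The related cytokine gene *Lif* had 6.06, 1.98 and 2.15 in WT, 191, 155 and 164 in Vehicle and 16.2, 24.3 and 26.3 after the antibody, and *Cxcl3* (4.33, 2.98 and 1.08 in WT, 19.3, 6.29 and 13.6 after the antibody) and *Cxcl13* (3.46, 0.992 and 0 in WT, 10.2, 5.39 and 3.63 after the antibody) were also called higher at low counts. The call of *Cxcl13* was lost without WT replicate 2, without WT replicate 3 or without anti-IL-17A replicate 1, with log2 fold changes from 1.39 to 3.31 over the libraries left out. *Il1rn*, the interleukin-1 receptor antagonist gene, had 2917, 2838 and 2818 in WT, 4031, 3915 and 4087 in Vehicle and 1369, 1440.2 and 1359 after the antibody (log2 fold change -1.04 ± 0.041 (SE, n = 3 per group), adjusted p = 9.9e-24). *Il18* fell from 284, 263 and 256 to 97.4, 105 and 93.4 and *Ccl8* from 38.1, 43.6 and 39.8 to 17.3, 16.2 and 10.9. *Il1b* had 5166, 5031 and 5034 in WT, 604, 532 and 555 in Vehicle and 3722, 3906 and 3834 after the antibody, a log2 fold change of -0.41 ± 0.035 against WT that was not called and of 2.76 ± 0.044 against Vehicle that was. Among 20 genes of Shp2 and Ras-ERK feedback 2 were called (10%, against 6.32% of all genes), with a median of 0.32. Both were transcription factor genes called higher, *Fosl1* (0, 11.9 and 6.46 in WT, 90.7, 122 and 98.4 in Vehicle, 45.7, 42.3 and 38.1 after the antibody) and *Etv4* (log2 fold change 2.24 ± 0.63 at low counts). *Fosl1* had 57.2% of its exon sequence shared with another annotated gene. *Ptpn11* itself had 3395, 3454 and 3528 in WT and 4719, 4822 and 4799.9 after the antibody (log2 fold change 0.47 ± 0.03 (SE, n = 3 per group), adjusted p = 3e-17), a difference that was not called and does not separate mutant from normal transcripts.

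The 15 highest and the 15 lowest log2 fold changes, read from called genes that averaged 10 counts or more and whose groups did not overlap, belonged mostly to genes of low abundance in one group. *Syce1*, encoding a synaptonemal complex protein, had 0 counts in all WT libraries and 22.3, 24.3 and 17.2 normalized counts after the antibody, at least 7.25-fold higher. *Trnp1* had 0.866, 0 and 1.08 in WT and 17.3, 14.4 and 27.2 after the antibody. *Slc13a5*, *Slit2*, *Aoc3*, *Ambp* and *Entpd3* had log2 fold changes from 2.46 to 3.52, and the most abundant of these was *Entpd3*, at 182, 171 and 208 against 39.0, 34.7 and 26.9 in WT. Among the decreased genes *AF067061* had 18.2, 21.8 and 30.1 in WT and 0, 0 and 0.907 after the antibody. *BC094916*, a member of the interferon-inducible Pyhin family, fell from 122, 127 and 109.8 to 16.2, 8.99 and 28.1 (log2 fold change -2.74 ± 0.26 (SE, n = 3 per group), adjusted p = 4.9e-11), with 342, 316 and 264 in Vehicle. *3830403N18Rik*, *Fam189a1*, *Rpl39l*, *Hcrtr2*, *Mcoln3*, *Rbm24*, *Gh*, *Crisp3* and *Rgs4* fell with log2 fold changes from -3.26 to -2.56. The minor spliceosome RNA genes *Rnu11* (-2.54 ± 0.33) and *Rnu12* (-2.48 ± 0.48) also fell, *Rnu11* with all of its exon sequence shared with another annotated gene.

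The fold change against WT followed gene length and GC content across all genes. The 12851 genes with a gene model (GENCODE M21, GRCm38) were divided into 10 equal groups by exon length and, separately, by GC content. From the shortest to the longest group the median log2 fold change went from -0.34 to 0.19, and from the lowest to the highest GC content from -0.23 to 0.12. Genes called lower had a median exon length of 3095 bp and genes called higher of 4536 bp, against 4311 bp for all. With an offset in each library for this trend, an alternative chosen after the trend was seen, 746 genes were called, 311 higher and 435 lower, of which 631 were among the 844. Under the offset 11 type I interferon-stimulated, 7 interferon-γ response, 7 MHC class II, 11 early B and 11 mature B genes were called lower and 5 stromal genes higher. Of the lists with smaller changes, the mast cell, basophil and eosinophil list had 1 gene called lower and the platelet list 2. The calls lost from the interferon, class II, B-lineage and stromal lists were those of *Mx1*, *Rtp4*, *Ifi204*, *Gbp2*, *Tgtp1*, *Tgtp2*, *Fcgr1*, *H2-Oa*, *Jchain*, *Tnfrsf17* and *Pdgfrb*. From other lists *Lyz2*, *Ly6a*, *Ank1*, *Slc4a1*, *Il1rn*, *Il18*, *Gzma*, *Clec10a*, *Plin4*, *Fabp4* and *Retn* were no longer called. The same held for *Cd200*, *Ccl7*, *Fcer1a*, *Prg3*, *Ear1*, *Ear6*, *Pf4* and *Ppbp*. What the length and GC trend arose from was not tested.

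**Figure D5:**
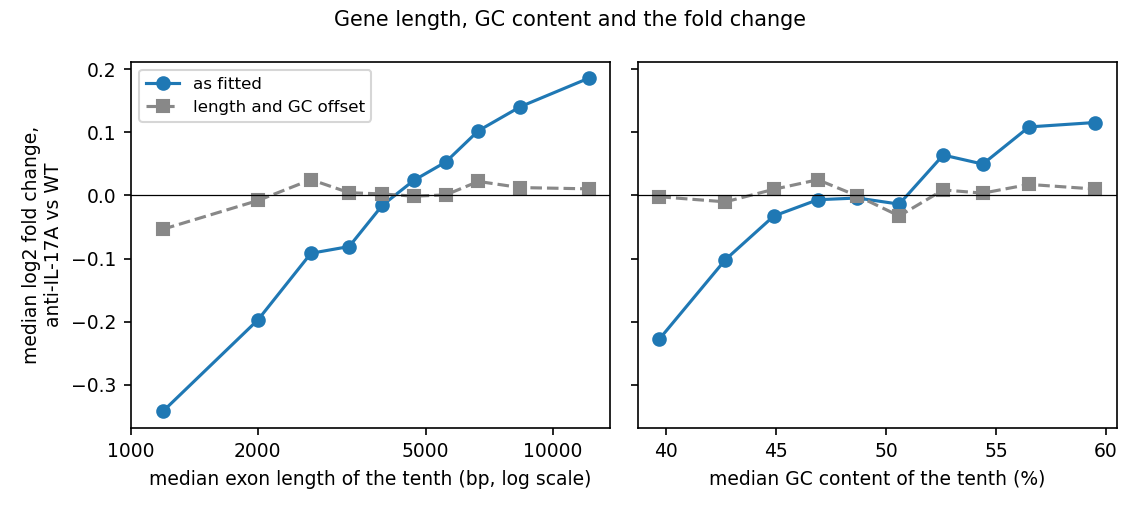
Median log2 fold change of anti-IL-17A against WT (y axis) in 10 equal groups of 12851 genes ordered by exon length (left, log scale) or GC content (right), as fitted (circles) and with the length and GC offset (squares). The median rises from -0.34 to 0.19 with length and from -0.23 to 0.12 with GC content as fitted, and stays between -0.053 and 0.025 with the offset.

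Without WT replicate 1, 833 genes were called, 308 higher and 525 lower, 723 of them among the 844. The type I interferon-stimulated list then had 14 genes called lower, the interferon-γ list 8, MHC class II 8, early B 12 and mature B 13, and the stromal list 6 higher. *Ccl7*, *Rtp4*, *Tgtp1*, *Tgtp2*, *Fcer1a* and *Cidec* were not called without it. Leaving out another library ended the calls of *Gbp2*, *H2-Oa*, *Oasl1* and *Plin4* (WT replicate 2), *Ly6a* and *Retn* (WT replicate 3), *Ccl7* and *Retn* (anti-IL-17A replicate 1), *Ccl7*, *Fcer1a*, *Oasl1*, *Tgtp1* and *Cidec* (anti-IL-17A replicate 2), and *Gbp10*, *Fcer1a*, *Ly6a*, *Pdgfrb*, *Plin4*, *Retn* and *Cidec* (anti-IL-17A replicate 3), and *Cidec* also lost its call without WT replicate 2. The log2 fold changes of *Gbp2*, *H2-Oa*, *Oasl1*, *Ly6a*, *Fcer1a* and *Pdgfrb* then stayed within 0.05 of the limit.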

How the data were processed

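RNA-seq was made from bone marrow of recipient mice, 3 per group, as unstranded paired-end polyA libraries. The authors aligned reads with STAR 2.7.2a to mm10 (GRCm38) and deposited raw counts per gene, made with featureCounts 2.0.1 on GENCODE annotation. Strand was ignored, and only uniquely mapped reads of mapping quality 10 or more were kept. Reads that overlap several genes were counted for each. Antisense and overlapping genes can therefore share reads. The table of visceral adipose tissue macrophages and the other obese groups were not compared here.

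The deposited counts entered edgeR 4.0.16 (R 4.3.3): TMM scaling, filterByExpr (which removed 0 genes), a robust quasi-likelihood fit of the 15 bone marrow libraries by group, and Benjamini-Hochberg adjustment over 13353 genes. Genes were called at an adjusted p under 0.05 and a log2 fold change beyond 1. The study's methods name DESeq2, which was run (1.42.0) as an alternative. For normalized counts, each count was scaled from its own TMM-adjusted library size to the average such size of the 15 libraries. Standard errors were taken from the F statistic. Against a group at 0 a lower bound used a floor of 3 counts per library, which covers counting error only. Libraries held 31281097 to 39925495 counts in the 3 groups used.

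Named genes were the 15 highest and 15 lowest log2 fold changes of called genes averaging 10 counts or more without overlap between groups, members of the gene lists, and sex-linked genes. The members and lists were chosen with earlier results of these data known. On simulated counts for this comparison (13353 genes, 200 changed) 100 of 100 genes at a log2 fold change of 1.5 and 100 of 100 at 2 were recovered with 1 false call. The changed genes were drawn only from well-counted genes, and the spread was the fitted one. The simulated libraries had no length or GC trend and no outlying replicate. This check therefore says nothing about genes at low counts or with fold changes near the limit. Mitochondrial, globin and immunoglobulin heavy chain constant genes such as *Ighm* were not analysed here, and some list members counted in the totals are not reported here by name. Promoter windows are from RefSeq, and gene models from GENCODE M21 matched 12851 genes by symbol. Alternatives were other scalings, filters and tests, a replicate block, each library left out, and an offset for exon length and GC content added after the data were seen.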

Additional observations from a re-analysis of the deposited data

How the results depend on the processing

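The calls rested on the fold limit more than on any other choice. With the fold limit tested directly (glmTreat against a log2 fold change of 1) 236 genes were called, 60 higher and 176 lower (25.4% higher, against 36.4%), of which 68 were list genes: 9 type I interferon-stimulated, 4 interferon-γ response, 3 cytokine and 1 cholesterol gene among them. Of 150 named genes 46 lost their call in this test. They included *Hsd17b7*, *Gbp2*, *Il1rn*, *Ly6a*, *Cxcl9*, *Traf3ip2*, *Lyz2* and *Col3a1*. With no fold limit 8849 genes were called, 4316 higher and 4533 lower (48.8% higher), of which 429 were list genes, with 29 type I interferon-stimulated, 24 interferon-γ response, 18 early B, 12 stromal, 20 cytokine and 16 cholesterol genes. With at least 10 counts in each of the 6 libraries 586 genes were called, 160 of them higher (27.3%), with 9 of the 30 largest changes and 4 cytokine genes still called; this filter removes genes that are near 0 in one group. DESeq2 size factors gave 842 calls, the DESeq2 Wald test 831 and the 6 libraries alone 791. Leaving out 1 library gave 819 to 878 calls. With the exon length and GC offset, chosen after seeing the data, 746 genes were called (41.7% higher), and 31 of 150 named genes lost their call. *Il17ra* (-0.0136), *Ddx3y* (0.25), *Eif2s3y* (0.25) and *Uty* (0.14) then changed sign. Over the fits with 1 library left out *Uty* ranged from -0.16 to 0.10, the latter without WT replicate 1. The causes were not tested. With the replicate number as a block 841 genes were called, 827 of them among the 844. The deviations of libraries with the same number correlated at 0.0269, 0.0449 and 0.0088, so the numbers were not taken to pair the mice, although each library correlated best with its own number. Differences in genes at 3 counts or fewer in both groups, such as *Il17a*, were not detectable at this depth.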

Other observations

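The heat-shock gene pair *Hspa1a* and *Hspa1b* was lower than in lean marrow. Of 21 immediate early and stress genes 2 were called (9.52%, against 6.32% of all genes), both lower, the inducible chaperone genes *Hspa1b* and *Hspa1a*. *Hspa1b* had 231, 224 and 226 normalized counts in WT, 155, 178 and 170.3 in Vehicle and 38.6, 44.9 and 53.5 after the antibody (log2 fold change -2.31 ± 0.18 (SE, n = 3 per group), adjusted p = 6.4e-14), and *Hspa1a* had 162, 147 and 128 in WT, 119, 119 and 115 in Vehicle and 40.6, 35.1 and 48.1 after the antibody (log2 fold change -1.82 ± 0.19 (SE, n = 3 per group), adjusted p = 5e-11). The genes are near-identical copies, so reads that fit both were not counted and their counts may be incomplete. The other heat-shock genes of the list, *Hspa8* (-0.77) and *Dnajb1* (-0.19), were not called. The transcription factor genes *Egr1* (0.83 ± 0.03), *Fos* (0.61 ± 0.025) and *Fosb* (0.60 ± 0.047) were higher in log2 fold change without reaching the limit, and the median of the list was 0.30.

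Of 15 immune checkpoint genes 2 were called (13.3%, against 6.32% of all genes), both lower, with a median of -0.21. *Btla* (-1.32 ± 0.06), an inhibitory receptor of B and T cells, had 1839, 1645 and 1624 in WT, 921, 912 and 861 in Vehicle and 643, 678 and 728 after the antibody. *Cd200* (-1.16 ± 0.16) was no longer called with the offset for gene length and GC content (-0.97). Of 12 genes of arginine metabolism and alternative activation only *Nos2* was called (8.33%, against 6.32% of all genes). *Arg1*, encoding arginase, had 10.4, 10.9 and 19.4 in WT, 2457, 2550.4 and 2474 in Vehicle and 17.3, 26.1 and 26.3 after the antibody, and the arginine transporter gene *Slc7a1* had a log2 fold change of 0.81 ± 0.04. Neither of the 2 leptin and GLP-1 receptor list genes in the table, *Lepr* and *Insr* (0.36 ± 0.042), was called.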
